A study of Homo sapiens with 24 samples.

Results

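The NRF2 antioxidant genes described here are the transcription factor NRF2 (NFE2L2), its inhibitor KEAP1 and 7 textbook NRF2 targets, GCLC, GCLM, NQO1, TXNRD1, SRXN1, HMOX1 and SLC7A11. These 9 genes were picked by symbol out of 58884 listed, with earlier results of the same libraries known. Their values in the 4 comparisons below are therefore given as a description, and their counts past a threshold stand only beside the share of all genes, with nothing read from them. All 9 passed the filter on low values in both tables, which asked for a TPM of at least 0.5 (a measure of transcript abundance that is corrected for transcript length and for the total of the library) in at least 2 libraries. Adjusted p-values are printed only for 71 other genes of the pathway and for 7 genes around the transcription factor ATF4.

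RNA was sequenced from HEK293T cells, a human embryonic kidney line, in 10 libraries and 5 groups of 2. The first table held untreated wild-type (WT) cells and untreated SETD2 knockout (KO) cells. The second table held untreated KO cells, KO cells transfected with full-length SETD2 (SETD2 FL), and KO cells transfected with a fragment of residues 1404 to 2564 that lacks the N-terminus (SETD2 C, called N3 in the labels). SETD2 is the enzyme that places the trimethyl mark on lysine 36 of histone H3, and the study states that both its alleles were disrupted in KO cells. The study also reports that this mark was missing from KO cells in western blots and in ChIP-seq. The constructs were driven by a CMV promoter and tagged, and RNA was taken 72 h after transfection. All groups of the second table therefore shared the KO background, but no library of KO cells given an empty vector was used here, so the construct and the transfection cannot be told apart. Whether the KO line is 1 clone, and whether the 2 libraries of a group came from separate cultures, is not given in the sources used here, so p-values measure only the spread between these libraries.

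The SETD2 transcript stood at 12.6 and 14.8 TPM in WT and at 16.2 and 16.3 TPM in the libraries labelled KO of the first table. It was not lower in the libraries labelled KO, so the transcript level does not check that label, and every KO direction below rests on it. In the second table SETD2 was 12 to 12.2 TPM in the libraries labelled KO, 422 to 439 TPM in SETD2 FL and 1264 to 1329 TPM in SETD2 C. These TPM are corrected for the lengths of annotated transcripts and not of each construct. In the limma fit used below, SETD2 was 2.75-fold higher in SETD2 C than in SETD2 FL (log2 1.46, standard error 0.06). It passed both thresholds used below to call a gene. The study, whose methods name edgeR for differential expression, reports no significant difference in transcript level between the 2 constructs in its RNA-seq data. The fold here is of scaled TPM, so the 2 statements rest on unlike measures. The part of this 2.75-fold difference in the comparisons of the constructs was not tested. WT replicate 1 stood apart in its share of TPM on mitochondrial genes, 23.2% against 12% to 14.1% in the other libraries of that table. This share was 6.23% to 7.04% in the libraries labelled KO, 7.79% to 11.0% in SETD2 FL and 2.93% to 3.37% in SETD2 C of the second table. All 7 HEK293T marker genes had at least 0.5 TPM in every library. Their summed level was highest in SETD2 C, at 1457 and 1529 TPM. It was 1079 and 1081 TPM in the libraries labelled KO and 916 and 1038 TPM in SETD2 FL of the second table. In the first table, WT had 736 and 861 TPM and the libraries labelled KO had 1043 and 1001 TPM. VIM made up most of each sum, with group means from 481 TPM in WT to 918 TPM in SETD2 C. These sums therefore do not describe each marker. Of 8 markers of other cell types, 5 stayed under 0.5 TPM in every library, and the summed level of all 8 was highest in SETD2 C, at 15.2 and 17.2 TPM. In the second table it was 7.86 and 8.42 TPM in the libraries labelled KO and 9.24 and 10.6 TPM in SETD2 FL. In the first table it was 7.77 and 8.54 TPM in WT and 11.8 and 12.2 TPM in the libraries labelled KO. Most of each sum was COL1A1, with group means from 6.73 TPM in WT to 11.4 TPM in SETD2 C. The part of these shares and markers in the results below was not tested.

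NRF2 is a transcription factor that is made continuously and, in unstressed cells, is bound by KEAP1, handed to a CUL3 ubiquitin ligase and degraded. When electrophiles or oxidants modify KEAP1, NRF2 escapes, enters the nucleus with a small MAF partner and binds antioxidant response elements in its target genes. Because this control acts on the protein, the transcript of NFE2L2 is not a direct readout of NRF2 activity. The targets make and recycle glutathione and thioredoxin, reduce quinones and break down heme, and several of them are also read by other factors, HMOX1 by BACH1 and SLC7A11 by ATF4.

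The elements that NRF2 and its MAF partners bind are short, and the matches below show where the letters of such an element lie near the starts of these genes. Windows from 1000 bases before to 50 bases after each RefSeq gene start were read from the human genome (hg38), and 7 of the 9 genes had a start in the table, HMOX1 and SLC7A11 being the others. The core TGACNNNGC, searched on both strands, was in 33.7% of 35109 such windows and in 6 of the 10 windows of the 7 genes, of which NFE2L2, KEAP1 and TXNRD1 had 2 each. The variant TGAGNNNGC was in 44.1% of all windows and in 7 of the 10. The element TGATGCAA of the CEBP-ATF family was in 2.6% of all windows and in 0 of the 10. These motifs differ at the fourth base, so a site on 1 strand can match only 1 of them. In the following matches the capitals mark the element, and the lower case bases are its neighbours, 5′ to 3′ on the strand named.
NQO1, chr16:69726997-69727025, minus strand: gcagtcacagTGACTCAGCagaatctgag
GCLM, chr1:93909446-93909474, plus strand: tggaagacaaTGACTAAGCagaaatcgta
KEAP1, chr19:10502784-10502812, plus strand: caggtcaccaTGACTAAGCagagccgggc
TXNRD1, chr12:104286920-104286948, minus strand: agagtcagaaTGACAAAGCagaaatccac
SRXN1, chr20:653454-653482, minus strand: aaactcacccTGAGTCAGCccgcccgggc
The SRXN1 match is of the variant TGAGNNNGC, since SRXN1 had 0 matches of the core, and the other matches printed are of the core. Counted from a RefSeq start, the match lay at -455 in NQO1, -272 in SRXN1, -102 in TXNRD1, -34 in GCLM and -31 in KEAP1. Further matches, among them the core of GCLC at -870, are not printed. With the core and the variant present in so large a share of all windows, these matches are a description of the sequence and not of binding.

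Among the 9 genes, HMOX1 and SLC7A11 had by far the widest range of group means in the second table, 1.36 and 1.25 on the log2 scale. NQO1 followed at 0.48, and the other 6 genes ranged over 0.07 to 0.23. In SETD2 C, HMOX1 was higher and SLC7A11 lower than in the libraries labelled KO. Fold changes below are on the log2 scale of scaled TPM plus a pseudocount of 0.5, which understates the change of low genes, and each is given with its standard error (SE) from the limma fit, with 2 libraries a group and the spread shared over the groups of a table. Both constructs were compared with the same 2 libraries labelled KO, and SETD2 C was also compared with SETD2 FL, so these 3 comparisons are not independent of each other.

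**Figure D1:**
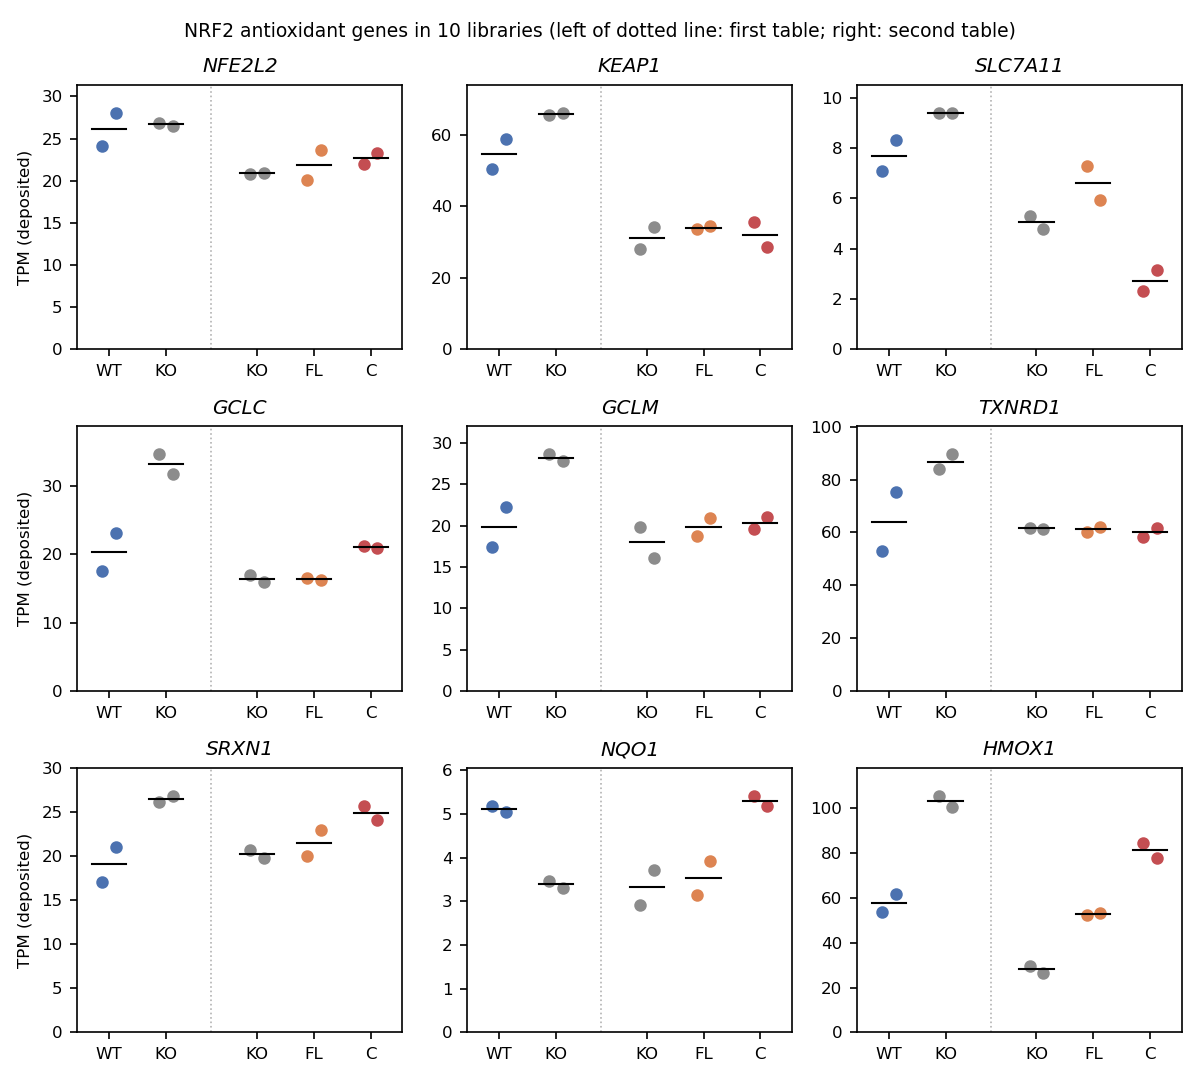
TPM (linear axes from 0) of the 9 genes in each of the 10 libraries, by group, with a dotted line between the 2 tables. Points are libraries and bars are group means. HMOX1 goes from 26.6 to 84.2 TPM over the groups of the second table without overlap, SLC7A11 is lowest in SETD2 C at 2.32 and 3.14 TPM, and the NFE2L2 points all lie between 20.0 and 28.0 TPM.

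HMOX1, the inducible heme oxygenase that cleaves heme to biliverdin, iron and carbon monoxide, lies on chromosome 22 (GRCh38, 35380361 to 35394214, plus strand, 5 exons). It measured 29.8 and 26.6 TPM in the libraries labelled KO, 52.3 and 53.2 TPM in SETD2 FL, and 84.2 and 77.9 TPM in SETD2 C. The 3 groups did not overlap, with SETD2 FL between the others. Against the libraries labelled KO, HMOX1 was 2.57-fold higher in SETD2 C (log2 1.36, SE 0.07) and 1.83-fold higher in SETD2 FL (log2 0.87, SE 0.07). Between the constructs, SETD2 C was above SETD2 FL by 0.49 (SE 0.07). Ordered by fold change from the highest, HMOX1 held place 63 of 15929 tested genes in SETD2 FL and place 228 in SETD2 C. It thus stood nearer to the top in the comparison in which its own change was smaller.

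SLC7A11, the light chain of the cystine and glutamate exchanger that imports the cystine needed for glutathione, lies on chromosome 4 (138164097 to 138242349, minus strand, 12 exons). It measured 5.31 and 4.78 TPM in the libraries labelled KO, 7.27 and 5.92 TPM in SETD2 FL, and 2.32 and 3.14 TPM in SETD2 C. Both SETD2 C values lay below all 4 others, and both SETD2 FL values lay above the KO values. The fold against the libraries labelled KO was 0.529 in SETD2 C (log2 -0.92, SE 0.16), and the log2 change in SETD2 FL was 0.33 (SE 0.16), or 0.17 without SETD2 FL replicate 3. Between the constructs the fold was 0.42 (log2 -1.25, SE 0.16), which put SLC7A11 at place 15895 of 15929. Its log2 change in SETD2 C against the libraries labelled KO ran from -1.13 with quantile normalization to -0.74 without SETD2 C replicate 1.

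SLC7A11 works as a pair with SLC3A2, the heavy chain that carries it to the membrane, and the ratio of the 2 transcripts within a library needs no scaling between libraries. It stood at 0.0408 and 0.0352 in the libraries labelled KO, 0.0370 and 0.0326 in SETD2 FL, and 0.0155 and 0.0206 in SETD2 C. The SETD2 FL and KO ratios overlapped, because SLC3A2 was also higher in SETD2 FL, 197 and 182 TPM against 130 and 136 TPM in the libraries labelled KO. In SETD2 C the light chain was low while SLC3A2 measured 150 and 152 TPM. The matched ratio of HMOX1 to HMOX2, the constitutive heme oxygenase, stood at 0.578 and 0.593 in the libraries labelled KO, 1.08 and 1.09 in SETD2 FL, and 1.85 and 1.68 in SETD2 C. In the libraries labelled KO of the second table HMOX2 was therefore the more abundant heme oxygenase transcript per length, and in both transfected groups HMOX1 was. In the first table this ratio was 0.831 and 0.822 in WT and 1.21 and 1.22 in the untransfected libraries labelled KO.

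**Figure D2:**
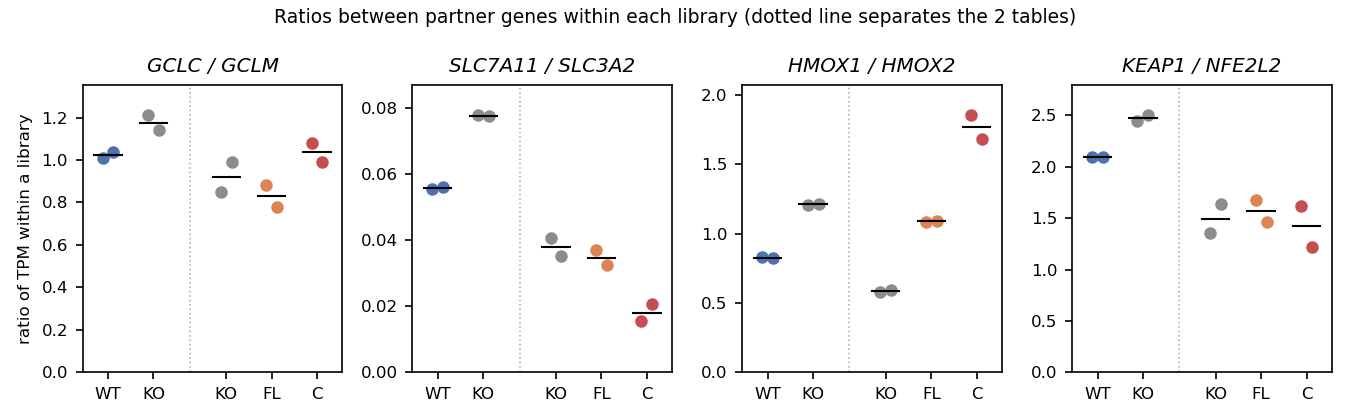
Ratios of TPM between partner genes within each library, by group, with a dotted line between the tables (linear axes from 0). Points are libraries and bars are group means. The HMOX1 to HMOX2 ratio is above 1 in SETD2 FL and SETD2 C (1.08 to 1.85) and in the libraries labelled KO of the first table (1.21 and 1.22), and the SLC7A11 to SLC3A2 ratio is lowest in SETD2 C (0.0155 and 0.0206).

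NFE2L2, on chromosome 2 (177218667 to 177392756, minus strand, 5 exons), differed little between the groups. It measured 20.8 and 21.0 TPM in the libraries labelled KO, 20.0 and 23.6 TPM in SETD2 FL, and 22.0 and 23.3 TPM in SETD2 C. The log2 change was -0.03 (SE 0.08) in SETD2 C and 0.04 in SETD2 FL, both within 1 SE of 0. KEAP1, the adaptor that presents NRF2 to its ubiquitin ligase, lies on chromosome 19 (10486125 to 10503558, minus strand, 6 exons). It measured 28.1 and 34.2 TPM in the libraries labelled KO, 33.6 and 34.5 TPM in SETD2 FL, and 35.7 and 28.5 TPM in SETD2 C. Its spread within a group was as wide as the difference between groups, with a log2 change of -0.11 (SE 0.12) in SETD2 C. Against SETD2 FL the log2 change of KEAP1 in SETD2 C was -0.22 (SE 0.12), and it was -0.38 without SETD2 C replicate 1 and -0.06 without SETD2 C replicate 2. KEAP1 transcripts exceeded those of NFE2L2 in every library, by a ratio of 1.22 to 1.68 in the second table.

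Glutathione synthesis starts with glutamate-cysteine ligase, a dimer of the catalytic subunit GCLC and the modifier subunit GCLM. GCLC, on chromosome 6 (53497341 to 53616970, minus strand, 16 exons), measured 16.9 and 16.0 TPM in the libraries labelled KO, 16.5 and 16.3 TPM in SETD2 FL, and 21.3 and 20.9 TPM in SETD2 C. Both SETD2 C values lay above the other 4, and the log2 change was 0.20 (SE 0.07) against the libraries labelled KO and 0.23 against SETD2 FL. GCLM, on chromosome 1 (93885199 to 93909456, minus strand, 7 exons), measured 19.9 and 16.1 TPM in the libraries labelled KO, 18.8 and 20.9 TPM in SETD2 FL, and 19.7 and 21.1 TPM in SETD2 C. Its groups overlapped in TPM, and the log2 change in SETD2 C was 0.03 (SE 0.10). The ratio of GCLC to GCLM stayed between 0.778 and 1.08 in these 6 libraries.

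TXNRD1, the selenoprotein that reduces cytosolic thioredoxin with NADPH, lies on chromosome 12 (104215779 to 104350307, plus strand, 17 exons). It measured 61.7 and 61.4 TPM in the libraries labelled KO, 60.3 and 62.1 TPM in SETD2 FL, and 58.2 and 61.8 TPM in SETD2 C. The groups overlapped in TPM, and after scaling both SETD2 C values were lower (log2 -0.18, SE 0.05), a change that shrank to -0.04 without scaling. SRXN1, sulfiredoxin, which reduces over-oxidised peroxiredoxins, lies on chromosome 20 (646615 to 653200, minus strand, 2 exons). It measured 20.7 and 19.8 TPM in the libraries labelled KO, 20.0 and 23.0 TPM in SETD2 FL, and 25.7 and 24.2 TPM in SETD2 C. Both SETD2 C values were above the other 4 in TPM, but after scaling SETD2 C and SETD2 FL overlapped. The log2 change was 0.15 (SE 0.07) against the libraries labelled KO, or 0.29 without scaling, and 0.09 (SE 0.07) against SETD2 FL.

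NQO1, the quinone reductase that uses NAD(P)H to reduce quinones to hydroquinones, lies on chromosome 16 (69706996 to 69726668, minus strand, 6 exons). It was a low transcript in all 10 libraries. It measured 2.92 and 3.71 TPM in the libraries labelled KO, 3.15 and 3.92 TPM in SETD2 FL, and 5.41 and 5.19 TPM in SETD2 C. Both SETD2 C values lay above the other 4, which overlapped among themselves. The log2 change was 0.48 (SE 0.14) against the libraries labelled KO and 0.41 (SE 0.14) against SETD2 FL, and with quantile normalization these were 0.31 and 0.27.

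**Figure D3:**
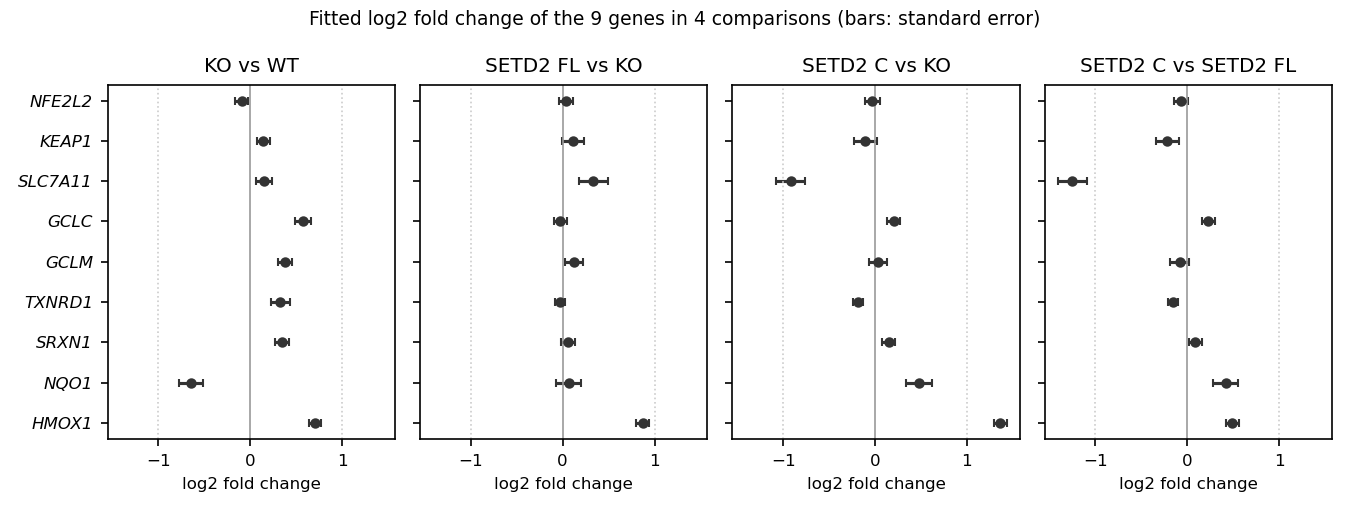
Log2 fold changes (axis) of the 9 genes in the 4 comparisons; bars are standard errors and dotted lines mark a fold of 2. HMOX1 lies at 1.36 and 0.87 in SETD2 C and SETD2 FL against KO, SLC7A11 lies at -0.92 and -1.25 in SETD2 C against KO and SETD2 FL, and 7 genes are positive in KO against WT.

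Read against all tested genes, a gene was called where the fold was at least 2 and the adjusted p at most 0.05 in limma. Of the 9, 1 was called in SETD2 C against the libraries labelled KO, HMOX1, beside 4.06% of all 15929 genes (3.75% called higher). Between the constructs 1 was called, SLC7A11, beside 3.79% of all genes (0.421% called lower). In SETD2 FL against the libraries labelled KO, 0 were called in limma beside 0.0816% of all genes, with 1 of the 9 at an unadjusted p under 0.05 beside 15.9% of all genes. Groups that did not overlap after scaling were common in these data. They were seen for 6 of the 9 genes in SETD2 C against the libraries labelled KO beside 71.3% of all genes, for 3 beside 48.2% in SETD2 FL, and for 6 beside 72.3% between the constructs. Nothing is read from these counts, since the 9 genes were picked with these comparisons known. Bulk RNA gives a mean over cells, so more cells with a transcript and more transcript per cell cannot be told apart.

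The order of the 9 genes by TPM changed at its top and its bottom. In the libraries labelled KO of the second table, TXNRD1 was highest at 61.6 TPM on average, followed by KEAP1 at 31.2 TPM and HMOX1 at 28.2 TPM, whose ranges overlapped. In SETD2 FL, TXNRD1 at 61.2 TPM was followed by HMOX1 at 52.8 TPM. In SETD2 C, HMOX1 was highest at 81.0 TPM, above TXNRD1 at 60.0 TPM with no overlap. NQO1 was lowest in the libraries labelled KO and SETD2 FL, at 3.32 and 3.54 TPM, and SLC7A11 was lowest in SETD2 C, at 2.73 TPM. The ranges of the neighbours NFE2L2 and SRXN1 overlapped in SETD2 FL, those of SRXN1 and GCLM in the libraries labelled KO and in SETD2 FL, and those of GCLC and GCLM in the libraries labelled KO and in SETD2 C.

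The first table asks what differs between WT and KO cells with no transfection. HMOX1 measured 53.6 and 61.7 TPM in WT and 105 and 100 TPM in the libraries labelled KO, a 1.63-fold difference (log2 0.70, SE 0.07). GCLC measured 17.6 and 23.2 TPM in WT and 34.7 and 31.8 TPM in the libraries labelled KO (log2 0.58, SE 0.09). By fold change from the highest, HMOX1 held place 142 and GCLC place 215 of 14741 tested genes. GCLM measured 17.4 and 22.3 TPM against 28.6 and 27.9 TPM (log2 0.38, SE 0.08), and SRXN1 measured 17.1 and 21.1 TPM against 26.2 and 26.9 TPM (log2 0.35, SE 0.08). Both glutamate-cysteine ligase subunits and sulfiredoxin were thus higher in both libraries labelled KO than in either WT library. TXNRD1 measured 52.8 and 75.3 TPM against 83.9 and 89.6 TPM (log2 0.33, SE 0.10), which was 0.19 without WT replicate 1, the library with the high mitochondrial share.

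NQO1 went the other way in this table, at 5.19 and 5.03 TPM in WT and 3.47 and 3.30 TPM in the libraries labelled KO (log2 -0.65, SE 0.13). SLC7A11 measured 7.07 and 8.30 TPM in WT and 9.39 TPM in each library labelled KO, with a log2 change of 0.15, or 0.28 without scaling. KEAP1 measured 50.4 and 58.8 TPM against 65.6 and 66.1 TPM (log2 0.14). NFE2L2 measured 24.1 and 28.0 TPM against 26.9 and 26.5 TPM, overlapping in TPM, and its log2 change of -0.09 turned positive without scaling. The 2 groups did not overlap after scaling for 9 of the 9 genes, beside 56.9% of all genes. Of these, 7 were higher and 2 lower in the libraries labelled KO, beside 27.4% and 29.4% of all genes. In limma 0 of the 9 were called beside 1.36% of all genes, with 6 of the 9 at an unadjusted p under 0.05 beside 24.9% of all genes. The ratio of GCLC to GCLM was 1.01 and 1.04 in WT and 1.21 and 1.14 in the libraries labelled KO.

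The libraries labelled KO appear in both tables, which were made separately, so their levels are set side by side with no test. HMOX1 was 100 to 105 TPM in the first table and 26.6 to 29.8 TPM in the second. GCLC was 31.8 to 34.7 TPM and 16.0 to 16.9 TPM, and KEAP1 was 65.6 to 66.1 TPM and 28.1 to 34.2 TPM. NQO1 was 3.30 to 3.47 TPM and 2.92 to 3.71 TPM, and NFE2L2 was 26.5 to 26.9 TPM and 20.8 to 21.0 TPM. For HMOX1 this gap between the tables was wider than any difference between groups within a table.

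The other genes of the pathway were tested with limma, and a gene is said to have risen or fallen where its adjusted p was at most 0.05. Of the 71 genes, 63 passed the filter in the second table. In SETD2 C against the libraries labelled KO, 11 rose, 17 fell and 35 did neither, with a median log2 change of -0.04 beside 0.05 for all genes. Over all genes, 21.1% rose and 15.1% fell. This split depended on the scaling, since without it 21 rose and 7 fell, while the median of all genes moved to 0.18. Quantile normalization gave 10 and 16. The 11 include AKR1C3, which passed the filter on low values only through SETD2 C.

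**Figure D4:**
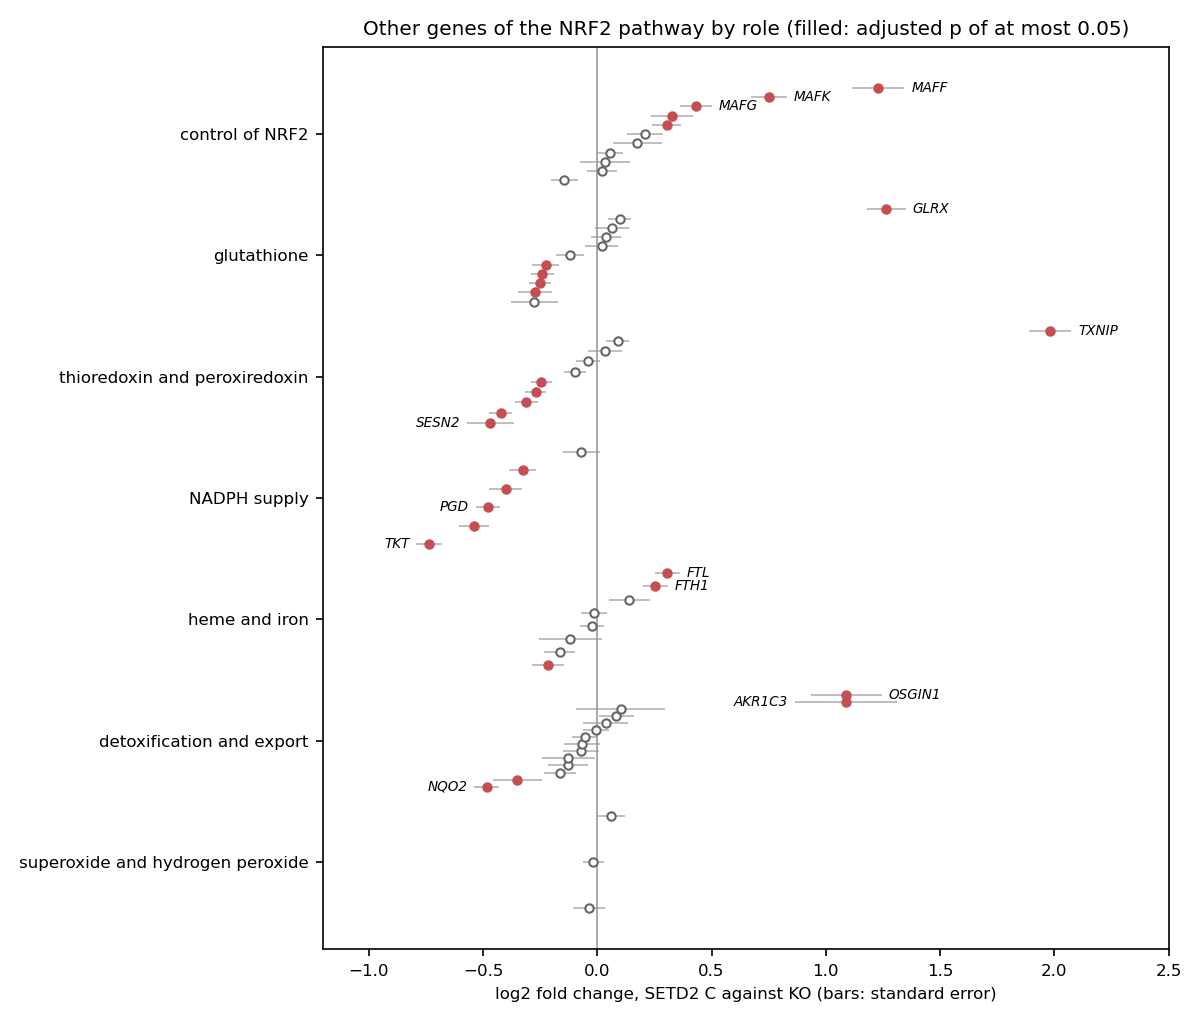
Log2 fold change (axis) of the 63 tested pathway genes in SETD2 C against KO, grouped by role; bars are standard errors, and filled points have an adjusted p of at most 0.05. TXNIP (1.98), GLRX (1.26) and MAFF (1.23) lie highest, and 5 of 6 genes of NADPH supply are filled and below 0.

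Of 11 genes that control NRF2, 5 rose and 0 fell in SETD2 C against the libraries labelled KO, with 1 below 0 at an unadjusted p under 0.05. Without SETD2 C replicate 2 only 3 rose, and without scaling 8 did. All 3 small MAF genes, whose proteins pair with NRF2 and also with its competitor BACH1, were among them. MAFF measured 2.02 and 2.32 TPM in the libraries labelled KO and 6.15 and 6.53 TPM in SETD2 C (log2 1.23, SE 0.12, adjusted p = 3.69e-04). MAFK rose by 0.75 (adjusted p = 5.51e-04) and MAFG by 0.43 (adjusted p = 0.00318). BACH1, the heme-sensing repressor of HMOX1, rose by 0.33 (SE 0.09, adjusted p = 0.0258), from 7.61 and 6.75 TPM to 10.1 TPM in both libraries. HMOX1 and the repressor of its gene were thus both higher in SETD2 C. MAFF, MAFK, MAFG and BACH1 also rose against SETD2 FL, by 1.23, 0.74, 0.27 and 0.40 (adjusted p = 3.28e-04, 5.16e-04, 0.0198 and 0.0117).

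Among genes of glutathione use, GLRX, a glutaredoxin that removes glutathione from proteins, rose from 26.9 and 31.0 TPM to 73.2 and 82.2 TPM in SETD2 C (log2 1.26, SE 0.09, adjusted p = 8.23e-05). Of 11 tested genes of this group it was the only one to rise, and GSS, GPX1, GPX4 and GSTP1 fell by 0.23 to 0.27. These 4 did not fall without scaling, where 4 genes of the group rose and 0 fell, and the group's count of falls was 1 without KO replicate 4 and 2 without SETD2 C replicate 2. In the thioredoxin group of 10, TXNIP, which binds and inhibits thioredoxin, rose from 22.8 and 24.9 TPM to 96.6 and 116 TPM (log2 1.98, SE 0.09, adjusted p = 1.14e-05). The other 5 that passed the test fell, among them the peroxiredoxin PRDX2 by 0.42 (adjusted p = 9.73e-04) and SESN2 by 0.47 (adjusted p = 0.00998). Without scaling 2 of the group rose and 2 fell. The thioredoxin inhibitor was thus up while TXNRD1, the reductase, ranged over 58.2 to 62.1 TPM in these 6 libraries. After scaling, TXNRD1 had a log2 change of -0.18 (SE 0.05) in SETD2 C against the libraries labelled KO.

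NADPH is a cofactor of TXNRD1 and NQO1. Of 6 genes grouped here under NADPH supply, 5 fell in SETD2 C and 0 rose, also at an unadjusted p under 0.05. The group includes TKT and TALDO1, whose enzymes do not make NADPH themselves. TKT, a transketolase of the pentose phosphate pathway, fell from 302 and 320 TPM to 212 and 202 TPM (log2 -0.74, SE 0.06, adjusted p = 1.44e-04). PGD, a dehydrogenase of the same pathway, fell by 0.48 (adjusted p = 7.77e-04). TALDO1 fell by 0.40 (adjusted p = 0.00441) and IDH1 by 0.33 (adjusted p = 0.00462), while the malic enzyme ME1 had a log2 change of -0.07 (adjusted p = 0.529). Without scaling 4 of the 6 still fell. The 5 genes that fell against the libraries labelled KO were each lower against SETD2 FL too, by 0.28 to 0.52 (adjusted p at most 0.0162).

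Around heme and iron, both ferritin chains rose in SETD2 C, FTL by 0.31 (adjusted p = 0.00423) and FTH1 by 0.25 (adjusted p = 0.00929). HMOX2 fell by 0.22 (adjusted p = 0.0453), the only one of 8 to fall, and it passed neither without scaling nor in every fit with 1 library left out. Without KO replicate 2 only 1 gene of this group rose. Of 14 tested genes of detoxification and export 2 rose and 2 fell, or 1 and 1 without either SETD2 C library. OSGIN1, an oxidative stress growth inhibitor, measured 0.55 and 0.59 TPM in the libraries labelled KO and 1.97 and 1.92 TPM in SETD2 C (log2 1.09, SE 0.16, adjusted p = 0.00189). AKR1C3, an aldo-keto reductase, measured 0.20 and 0.10 TPM in the libraries labelled KO and 1.09 and 0.82 TPM in SETD2 C. It is counted among the 2, but it reached the filter only through SETD2 C, so it had to differ, and its reads are uncertain because close paralogs share sequence. NQO2, the paralog of NQO1, fell from 37.5 and 37.9 TPM to 29.7 and 29.8 TPM (log2 -0.48, SE 0.06, adjusted p = 8.11e-04), where NQO1 was higher. Of the 3 tested genes on superoxide and hydrogen peroxide, SOD1, SOD2 and CAT, 0 passed in either direction, also at an unadjusted p under 0.05.

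In SETD2 FL against the libraries labelled KO, 1 of the 63 pathway genes rose and 0 fell in limma, beside 0.176% and 0.0314% of all genes, with 6 above and 8 below 0 at an unadjusted p under 0.05. The gene was SLC3A2, the partner of SLC7A11 (log2 0.49, SE 0.07, adjusted p = 0.0436), and it no longer passed when any 1 library was left out. Between the constructs, 11 rose and 18 fell in SETD2 C, beside 21.4% and 16.8% of all genes. The 11 again include AKR1C3, which passed the filter on low values only through SETD2 C. TXNIP rose by 2.15, GLRX by 1.13 and MAFF by 1.23, while SESN2 fell by 0.91, MGST1 by 0.57, TKT by 0.52 and SLC3A2 by 0.45 (adjusted p at most 0.00424 for each). These counts also rested on SETD2 C replicate 2, without which 7 rose and 11 fell, and on SETD2 FL replicate 3, without which 9 rose and 10 fell. Without scaling 17 rose and 11 fell.

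In the libraries labelled KO against WT, 62 pathway genes were tested and 0 rose and 2 fell in limma, with 7 above and 9 below 0 at an unadjusted p under 0.05. ABCB6, a porphyrin transporter, fell from 9.09 and 10.9 TPM to 1.61 and 1.03 TPM (log2 -2.65, SE 0.16, adjusted p = 8.23e-04). It stayed at 1.27 to 1.70 TPM in all 6 libraries of the second table. MGST1, a microsomal glutathione transferase, fell from 99.8 and 92.8 TPM to 60.1 and 57.6 TPM (log2 -0.84, SE 0.12, adjusted p = 0.0163), and it did not pass without either library labelled KO. Over all genes 1.32% rose and 3.17% fell in this comparison.

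SLC7A11 is also a target of ATF4, the factor of the amino acid response, so ATF4 and 6 of its targets were read beside it. In SETD2 C against the libraries labelled KO, 5 of the 7 fell and 1 rose, beside 15.1% and 21.1% of all genes. ATF4 fell from 687 and 648 TPM to 531 and 540 TPM (log2 -0.46, SE 0.05, adjusted p = 6.76e-04). CHAC1, which degrades glutathione, fell from 5.22 and 3.69 TPM to 1.95 TPM in both libraries (log2 -1.12, SE 0.15, adjusted p = 0.00147). ASNS, asparagine synthetase, fell by 0.75 (adjusted p = 8.93e-05), PSAT1, of serine synthesis, by 0.69 (adjusted p = 8.93e-05), and SLC7A5, another light chain that pairs with SLC3A2, by 0.59 (adjusted p = 9.17e-04). DDIT3, the stress factor CHOP, rose from 21.0 and 17.7 TPM to 56.1 and 52.9 TPM (log2 1.33, SE 0.09, adjusted p = 8.14e-05). TRIB3 had a log2 change of -0.20 (adjusted p = 0.0712). SLC7A11 thus lay on the same side of 0 as 6 of these genes and on the opposite side to DDIT3, and the counts of 1 rise and 5 falls were the same without scaling and without any 1 library.

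Against SETD2 FL, 6 of the 7 fell in SETD2 C and DDIT3 rose, beside 16.8% and 21.4% of all genes. CHAC1 was down by 1.49 (adjusted p = 4.53e-04) and SLC7A5 by 0.96 (adjusted p = 1.02e-04). In SETD2 FL against the libraries labelled KO, 0 of the 7 passed in limma. At an unadjusted p under 0.05, 3 were above and 1 below 0, beside 1385 and 1151 of all 15929 genes. In the libraries labelled KO against WT, 2 fell, ASNS by 0.42 (adjusted p = 0.0300) and CHAC1 by 0.95 (adjusted p = 0.0397), where SLC7A11 had a log2 change of 0.15. Over all genes, 3.17% fell in that comparison. All 7 were below 0 at an unadjusted p under 0.05, beside 2080 of all 14741 genes. The count of 2 was 1 without scaling, and it changed whichever 1 library was left out.

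The genes whose values over the 6 libraries of the second table lay nearest to those of HMOX1, by the root mean square difference of centred log2 values, were PTH2 (0.07), DNALI1 (0.09) and ANKRD1 (0.09). PTH2 and DNALI1 were at most 1.14 TPM and ANKRD1 at most 2.31 TPM in any library. The pseudocount thus weighs on the likeness of all of them to HMOX1. PTH2 passed the filter on low values only through SETD2 C. ANKRD1 measured 0.64 and 0.54 TPM in the libraries labelled KO, 1.61 and 1.3 TPM in SETD2 FL, and 2.31 and 2.26 TPM in SETD2 C. Nearest to SLC7A11 were DIRAS3 (0.12), the mitochondrial gene MT-ND4 (0.14) and the transcript AC011499.1 (0.14). The pseudocount weighs here too, since DIRAS3 was at most 1.21 TPM and AC011499.1 at most 0.6 TPM. AC011499.1 passed the filter only through SETD2 FL. MT-ND4 measured 4333 and 3738 TPM in the libraries labelled KO, 6465 and 4722 TPM in SETD2 FL, and 2580 and 3306 TPM in SETD2 C. Over these 6 libraries SLC7A11 followed the same order as the mitochondrial share of TPM, and the part of that share in its values was not tested.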

How the data were processed

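RNA-seq libraries of HEK293T cells were used, and the histone ChIP-seq samples were not analysed here. Per the labels and methods, the authors demultiplexed with bcl2fastq 2.18, aligned with STAR 2.6.1c to hg38 and deposited TPM from RSEM 1.3.0 in 2 tables, compared only within a table. Read totals were not used, so depth behind each TPM is unknown and no counting interval is given. The authors tested counts with edgeR, which TPM does not allow. Here genes annotated as protein-coding or lncRNA in GENCODE (58472 matched by identifier, 18 by symbol, 394 unmatched) with at least 0.5 TPM in at least 2 libraries were kept, 14741 and 15929 genes. TPM was divided by median-ratio scaling factors (from genes with at least 1 TPM in every library), log2(value + 0.5) was taken, and limma 3.58.1 (R 4.3.3, trend, all groups of a table, Benjamini-Hochberg adjustment) was fitted. The script was run on simulated data, where the only requirement set was recovery of log2 changes of 3 in the second table. An exact permutation test of 2 against 2 cannot go below 0.333. The members and lists were chosen with earlier results of these data known. Pathway genes named are those called at both thresholds and otherwise the 3 largest changes each way at an adjusted p of at most 0.05 without overlap, and further members of a group were named after their values were seen. The values of 1 listed gene are not reported here. Alternatives were pseudocounts, filter, scaling, fits of only the groups compared, a replicate block and leaving out each library. Promoter sequence came from RefSeq starts on hg38 (GRCh38).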

Additional observations from a re-analysis of the deposited data

How the results depend on the processing

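Genes called numbered 647 in SETD2 C against KO, and 1079 and 373 with pseudocounts of 0.1 and 1, and 518 to 703 without 1 library. In SETD2 FL against KO they numbered 13, and 7 with a pseudocount of 1, 3 without the filter, 21 without scaling and 2 to 6 without 1 library. In SETD2 C against SETD2 FL they numbered 603, and 956 and 362 with pseudocounts of 0.1 and 1, and 495 to 666 without 1 library. In KO against WT they numbered 200, and 128 with a pseudocount of 1, 73 without the filter and 122 to 214 without 1 library. Pathway genes that rose and fell in SETD2 C against KO, 11 and 17, became 21 and 7 without scaling, and 8 to 10 and 12 to 16 without 1 library. In SETD2 C against SETD2 FL, 11 and 18 became 17 and 11 without scaling, and 7 to 9 and 10 to 15 without 1 library. In SETD2 FL against KO the 1 gene that rose became 0 without the filter, in a fit of only those 4 libraries and without any 1 library. In KO against WT, 0 and 2 became 2 and 2 without scaling, 0 and 1 without the filter, and 0 to 1 and 1 to 3 without 1 library. Of the refitted log2 changes of the 9 genes, 320 moved by less than the spread between libraries and 40 by more. Small changes of several of the 9, among them NFE2L2, KEAP1, GCLM and SRXN1, turned sign in some refits. Without scaling NFE2L2 turned positive in 3 comparisons, KEAP1 in SETD2 C against KO and GCLM in SETD2 C against SETD2 FL. The share of genes past the adjusted p that were higher went from 58.3% to 83.2% without scaling and 47.5% with quantile normalization in SETD2 C against KO, from 56.0% to 77.5% and 47.1% against SETD2 FL, and from 29.3% to 53.3% and 35.0% in KO against WT. Except where the construction of an alternative shows it, the cause was not tested. Leaving out a library left 1 in its group, assumed to vary like the others.

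In the first table the replicate numbers 1 and 2 occur in both groups, but the labels tie nothing to a number. With 2 pairs, the deviations of same-numbered libraries correlated at 0.147, which cannot decide whether they were paired. With a replicate block 3 pathway genes rose and 5 fell, and 213 genes were called. No paired analysis was possible in the second table because its groups share fewer than 2 numbers.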
